A study of Homo sapiens with 8 samples.

Results

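The genes described here are 10 ERK feedback genes, transcripts that signalling through the ERK kinases is known to induce and whose products mostly restrain or relay that signalling. They are the phosphatases DUSP4 and DUSP6, the Sprouty genes SPRY1, SPRY2 and SPRY4, the Sprouty-related genes SPRED1 and SPRED2, the ETS transcription factors ETV4 and ETV5, and PHLDA1. They were taken by symbol from the deposited gene tables of 8 RNA sequencing libraries. All 10 were among the 27317 symbols listed, and all 10 were among the 17268 genes that passed a filter on low counts and were tested. The libraries came from MEL1 cells, an established line of human embryonic stem cells (ESCs), so all groups rest on 1 line. They formed 4 groups of 2 libraries, namely TCDD at D1, DMSO at D1, TCDD at D2 and DMSO at D2. TCDD is a dioxin and a strong ligand of AHR, the aryl hydrocarbon receptor, and per the labels it was given at the ESC stage at 2 nM in DMSO, while controls received DMSO alone. D1 cells were taken from E8 culture just before differentiation. D2 cells had then spent 2 days in RPMI medium with B27 lacking insulin and 5 µM of CHIR99021, a GSK3 inhibitor that activates Wnt signalling and starts cardiac differentiation through mesoderm. How long cells were exposed and whether TCDD was present during those days is not stated in the labels. Nor is it stated that replicates came from separate cultures, so the p-values reflect the spread among these libraries alone, and that spread may be technical.

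Growth factors such as FGF2 activate receptor tyrosine kinases, which pass the signal through RAS, RAF and MEK to the ERK kinases. ERK in turn raises transcription of genes whose products limit the cascade at several levels. Phosphatases such as DUSP6 remove phosphate from ERK itself. Sprouty proteins act between receptor and RAF, and SPRED proteins bring the RAS inactivator neurofibromin to the membrane. ETV4 and ETV5 carry FGF signals to target genes, and transcripts of this group are widely read as a record of ERK output. In human ESCs, FGF and ERK signalling helps to maintain the undifferentiated state, and FGF ligands also act in the primitive streak, the source of mesoderm. The libraries measured RNA and held no measure of ERK phosphorylation.

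Library totals ran from 34873055 to 43770420 counts, and scaling factors between libraries (TMM) ran from 0.958 to 1.04. Levels are given as CPM, counts relative to the scaled library total, which are not corrected for gene length and are compared only within a gene. The exposure label was checked on CYP1A1 and TIPARP, AHR target genes that were 113-fold and 10.8-fold higher with TCDD at D1. At D2 they were 5.89-fold and 3.69-fold higher, CYP1A1 averaging 2.19 CPM with TCDD and 0.378 CPM with DMSO, and its D2 call was lost without replicate 1 of TCDD or either DMSO library of D2 (edgeR adjusted p from 0.0976 to 0.213). The stage label was checked on marker lists. Pluripotent markers were above 1 CPM for 6 of 6 genes in every group, and the primitive streak and mesoderm list summed to 11.4 to 12.1 CPM with TCDD and 11.7 CPM with DMSO at D1. At D2 that list summed to 293 to 327 CPM in the TCDD libraries, against 607 to 647 CPM in the DMSO libraries.

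Promoter sequences are shown for the genes on which the comparisons turn. These are DUSP6 and SPRY4, which were lower at D2 than at D1, and SPRED1 and PHLDA1, which rose with TCDD at 1 time each. The RefSeq table for GRCh38.p14 held windows for 7 of the 10 genes, 11 windows in all, each of 300 bases from 250 before to 50 after an annotated start. This build differs from hg19, on which the reads were counted. The DUSP6 window is chr12:89352452-89352751 on the minus strand, that of SPRY4 is chr5:142324198-142324497 on the minus strand, that of SPRED1 is chr15:38252586-38252885 on the plus strand, and that of PHLDA1 is chr12:76031727-76032026 on the minus strand. Each is printed 5′ to 3′ along the gene, with capitals marking GCGTG, the core of the AHR response element, on either strand.
DUSP6: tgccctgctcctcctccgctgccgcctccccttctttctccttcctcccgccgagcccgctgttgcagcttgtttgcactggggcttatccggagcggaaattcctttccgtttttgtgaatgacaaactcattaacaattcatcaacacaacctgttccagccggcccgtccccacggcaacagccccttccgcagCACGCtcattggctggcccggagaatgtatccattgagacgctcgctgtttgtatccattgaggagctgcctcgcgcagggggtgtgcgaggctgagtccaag
SPRY4: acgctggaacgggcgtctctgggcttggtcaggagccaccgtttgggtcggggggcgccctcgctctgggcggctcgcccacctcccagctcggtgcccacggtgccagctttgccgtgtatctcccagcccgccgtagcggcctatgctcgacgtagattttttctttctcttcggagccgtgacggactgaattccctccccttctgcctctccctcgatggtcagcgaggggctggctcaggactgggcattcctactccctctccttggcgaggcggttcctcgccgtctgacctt
SPRED1: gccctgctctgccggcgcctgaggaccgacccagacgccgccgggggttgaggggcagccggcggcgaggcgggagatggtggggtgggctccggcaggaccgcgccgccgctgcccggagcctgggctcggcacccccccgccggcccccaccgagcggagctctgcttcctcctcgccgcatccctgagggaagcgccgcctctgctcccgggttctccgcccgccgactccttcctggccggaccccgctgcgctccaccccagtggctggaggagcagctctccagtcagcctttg
PHLDA1: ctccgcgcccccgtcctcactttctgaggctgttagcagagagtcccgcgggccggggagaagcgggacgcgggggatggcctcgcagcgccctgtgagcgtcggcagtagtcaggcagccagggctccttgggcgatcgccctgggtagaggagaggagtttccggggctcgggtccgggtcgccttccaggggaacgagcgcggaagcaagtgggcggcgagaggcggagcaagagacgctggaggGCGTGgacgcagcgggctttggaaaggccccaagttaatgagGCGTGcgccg
The capitals show 1 core in the DUSP6 window, on the opposite strand and 53 bases before the start, and 2 in the PHLDA1 window, at 2 bases before and 40 after it. The SPRY4 and SPRED1 windows held none. Among the 7 genes with a window, 4 held the core (DUSP6, PHLDA1, SPRED2 and SPRY1), in 4 of the 11 windows, while 36.5% of 35116 promoters of the same length held it. GGAAGT, an ETS core, was found in SPRY2 alone, against 22.8% of all promoters. TGACTCA, the AP-1 motif, was found in SPRED2 alone, against 4.95% of all promoters. Both strands were searched, no hit overlapped a hit of another motif, and a match describes letters in these windows only.

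**Figure D1:**
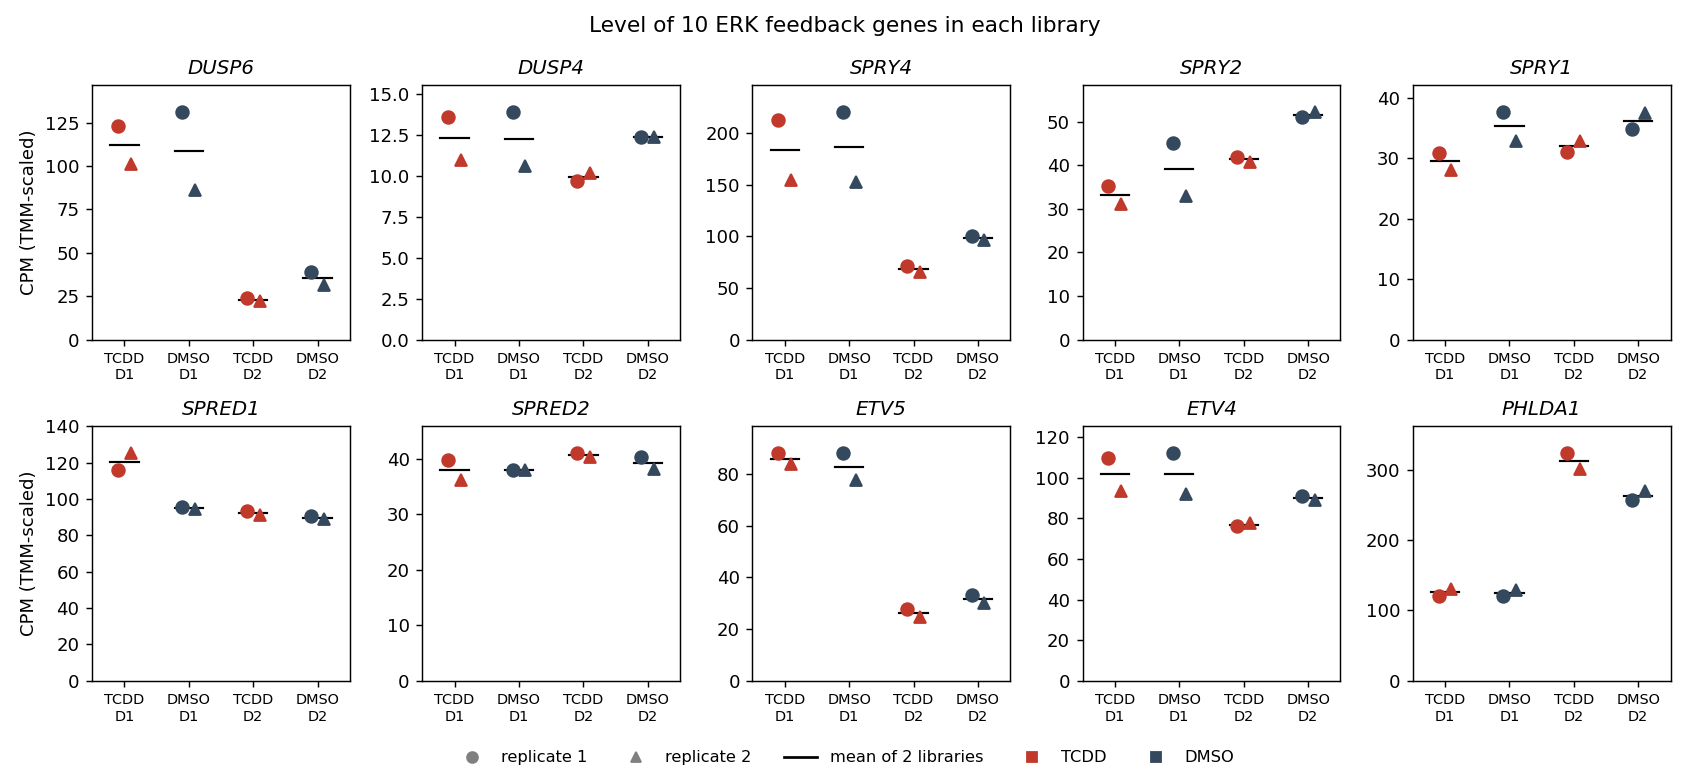
Level of each ERK feedback gene in CPM (vertical axis, from 0) in the 8 libraries, by treatment and time; circles are replicate 1, triangles replicate 2 and bars the mean of 2 libraries. DUSP6 lies at 22.1 to 39.2 CPM in the 4 D2 libraries and at 86.4 to 131 CPM in the 4 D1 libraries, while PHLDA1 lies at 257 to 323 CPM at D2 and at 121 to 131 CPM at D1.

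The question of the D1 comparison was what exposure did to stem cells before any differentiation. SPRED1 was the 1 gene of the 10 that passed the threshold at D1, an adjusted p under 0.05, and it rose. Of all genes tested 1.14% passed and 0.735% rose. Its level was 116 and 125 CPM in the TCDD libraries, against 95.4 and 94.6 CPM in the DMSO libraries. Both TCDD libraries lay above both DMSO libraries. The log2 fold change was 0.34 ± 0.05 (SE), or 1.27-fold (edgeR quasi-likelihood test, Benjamini-Hochberg adjusted p = 0.00024). SPRED2, its close relative, had 39.8 and 36.3 CPM with TCDD and 38.1 and 38.1 CPM with DMSO, so the TCDD libraries lay on either side of the DMSO ones. Among the marker lists at D1, the pluripotent gene PRDM14 fell and the collagen gene COL1A1, on the fibroblast list, rose. Of the 3 tested fibroblast genes the other 2, COL1A2 and THY1, had negative log2 fold changes and were not called. The pluripotent list summed to 2960 to 2980 CPM with TCDD and 3040 to 3270 CPM with DMSO, and the fibroblast list to 847 to 929 CPM with TCDD and 834 to 876 CPM with DMSO, with LUM at 0 in both groups. Their part in the SPRED1 value was not tested.

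Sprouty genes did not pass the test at D1. SPRY1, an inhibitor of receptor tyrosine kinase signalling, had 30.9 and 28 CPM with TCDD at D1, against 37.6 and 32.9 CPM with DMSO. Its groups did not overlap, and its log2 fold change was -0.26 ± 0.07 (edgeR adjusted p = 0.0976). SPRY2 had 35.3 and 31.1 CPM with TCDD and 45.2 and 32.9 CPM with DMSO, groups that overlapped (-0.23 ± 0.15, edgeR adjusted p = 0.69). Both passed when replicate 2 of DMSO at D1 was left out (edgeR adjusted p = 0.0406 for SPRY1 and 0.00491 for SPRY2). Without replicate 1 of DMSO at D1, the log2 fold changes were -0.16 for SPRY1 (adjusted p = 0.917) and 0.02 for SPRY2 (adjusted p = 1). SPRY4, another Sprouty gene, had 212 and 154 CPM with TCDD and 220 and 152 CPM with DMSO. The spread between its replicates exceeded the difference between its means of 183 ± 41.1 and 186 ± 47.8 CPM (SD, n = 2 each). In total 2 of the 10 genes, SPRED1 and SPRY1, had groups that did not overlap at D1, where 37.5% of all genes tested did so.

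The phosphatases, ETS factors and PHLDA1 lay close together between treatments at D1. DUSP6, a phosphatase that acts on ERK itself, had 123 and 101 CPM with TCDD, against 131 and 86.4 CPM with DMSO, a log2 fold change of 0.05 with a 95% interval of -0.61 to 0.71. Both TCDD libraries lay inside the DMSO range, which spanned 1.51-fold. PHLDA1, a pleckstrin homology-like protein, had 121 and 131 CPM with TCDD and 121 and 129 CPM with DMSO, and its interval, -0.10 to 0.12, was narrow. For ETV5, ETV4 and DUSP4 the log2 fold changes were 0.05, -0.00 and 0.01, with edgeR adjusted p-values of 0.853 to 0.999 and overlapping groups. The median log2 fold change of the 10 genes was 0.01 at D1, beside 0 for all genes tested. Replicate 1 exceeded replicate 2 in both treatments at D1 for DUSP4, DUSP6, SPRY1, SPRY2, SPRY4, ETV4 and ETV5. For SPRY4 that gap was 0.46 with TCDD and 0.53 with DMSO on the log2 scale, and for DUSP6 it was 0.28 and 0.59.

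The D2 comparison addressed which genes differed in differentiating cells after exposure at the ESC stage. PHLDA1 was the 1 gene of the 10 that passed the threshold, and it rose, where 2.90% of all genes tested passed, 1.40% rising and 1.50% falling. The other genes were mostly lower with TCDD: for 7 of the 10 both TCDD libraries lay below both DMSO libraries, but none of the 7 passed in the edgeR fit of group means over all 8 libraries. At an unadjusted p under 0.05, 4 of the 10 genes were lower (DUSP4, SPRY1, ETV4 and ETV5), where 7.07% of all genes tested were, and DESeq2 called none of the 7. Of all genes tested, 23.3% had groups set apart in that direction and 47.7% in either. The 7 were DUSP4, DUSP6, SPRY1, SPRY2, SPRY4, ETV4 and ETV5. The median log2 fold change of the 10 genes was -0.24 at D2, beside 0 for all genes tested.

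PHLDA1 had 323 and 301 CPM with TCDD at D2, against 257 and 269 CPM with DMSO. The TCDD libraries were both higher, by 1.19-fold (log2 fold change 0.25 ± 0.05, edgeR adjusted p = 0.00644). This call was lost without replicate 1 of TCDD at D2 (adjusted p = 0.104) and without replicate 1 of DMSO at D2 (adjusted p = 0.173), and the log2 fold change then was 0.20 and 0.22. In bulk libraries such as these, more cells of a type and more RNA per cell cannot be told apart, and the same holds for every lower value.

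Among the phosphatases at D2, DUSP6 had 23.9 and 22.1 CPM with TCDD, against 39.2 and 31.6 CPM with DMSO. The TCDD libraries lay lower and close together, and the DMSO libraries were further apart. Its log2 fold change was -0.61 ± 0.29 with a 95% interval of -1.41 to 0.19 (edgeR adjusted p = 0.475). DUSP4, a related phosphatase of MAP kinases in the nucleus, had 9.71 and 10.2 CPM with TCDD and 12.4 and 12.4 CPM with DMSO (-0.32 ± 0.12, edgeR adjusted p = 0.206).

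The Sprouty genes gave a like picture at D2. SPRY4 had 71.2 and 65 CPM with TCDD, against 100 and 96.1 CPM with DMSO, groups separated by more than the gap within either. Its log2 fold change was -0.53 ± 0.26 (edgeR adjusted p = 0.486). SPRY2 had 42 and 40.7 CPM with TCDD and 51.1 and 52.2 CPM with DMSO (-0.32 ± 0.14, adjusted p = 0.392). SPRY1 had 31.1 and 32.8 CPM with TCDD and 34.9 and 37.4 CPM with DMSO, the smallest separation of the Sprouty genes (-0.18 ± 0.07, adjusted p = 0.223).

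Both ETS factors lay lower in the TCDD libraries of D2 as well. ETV5 had 27.7 and 24.8 CPM with TCDD and 33 and 29.9 CPM with DMSO (-0.26 ± 0.07, edgeR adjusted p = 0.0729), the smallest adjusted p of the 7. ETV4 had 76.1 and 77.8 CPM with TCDD and 91 and 89 CPM with DMSO (-0.23 ± 0.10, adjusted p = 0.354). Reads of ETV4 share exon positions with DHX8, a helicase gene on the opposite strand with 2374 to 3281 counts per library, and whether the counting used strand is not stated in the labels. The ETV4 counts are uncertain to that extent. The SPRED genes differed least at D2: SPRED1 had 93.4 and 91.1 CPM with TCDD and 90.4 and 88.9 CPM with DMSO (0.04 ± 0.05, adjusted p = 0.78), and SPRED2 had 41 and 40.4 CPM with TCDD and 40.4 and 38.2 CPM with DMSO (0.05 ± 0.06, adjusted p = 0.768).

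**Figure D2:**
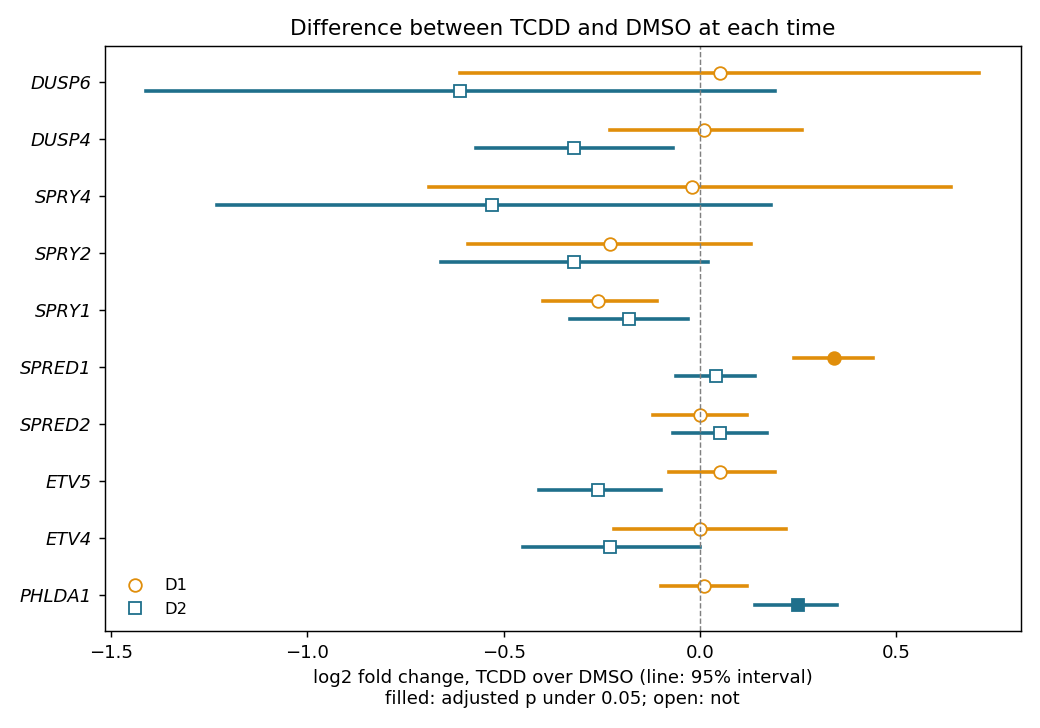
Log2 fold change of TCDD over DMSO for each ERK feedback gene (horizontal axis) at D1 (circles) and D2 (squares), with 95% intervals from the fit over 8 libraries; filled symbols have an adjusted p under 0.05. SPRED1 at D1 (0.34) and PHLDA1 at D2 (0.25) are filled, and 7 of the 10 D2 values lie at or below -0.18 with open symbols.

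The calls on the 7 lower genes changed with the settings of the fit, and the cause was not tested. In a fit of the 4 D2 libraries alone, 6 of the 7 fell with TCDD: DUSP4 (edgeR adjusted p = 0.0366), DUSP6 (0.000497), SPRY2 (0.000874), SPRY4 (1.08e-05), ETV4 (0.00365) and ETV5 (0.0444). In that fit 2.22% of the 16523 genes tested fell, and PHLDA1 again rose. The log2 fold changes were close to those of the fit over 8 libraries, for example -0.53 for SPRY4 and -0.62 for DUSP6, but the SEs were 0.05 and 0.09 in place of 0.26 and 0.29. Between replicates of D2 the log2 gap of SPRY4 was 0.13 with TCDD and 0.06 with DMSO, smaller than the gaps at D1. In the fit over 8 libraries without edgeR's robust estimates, DUSP6 (adjusted p = 0.0346) and SPRY4 (0.0406) fell, where 1.54% of all genes tested did so. Without a filter on low counts, DUSP4 (adjusted p = 0.0195), SPRY2 (0.0214), ETV4 (0.000988) and ETV5 (0.00146) fell, where 1.98% of the 23118 genes tested did so. The markers of the stage moved alongside these values. Of 6 streak and mesoderm markers 4 fell with TCDD at D2 (MIXL1, EOMES, T and WNT3) and none was called as higher. The log2 fold change was negative for 5 and positive for 1, MESP1 (1.35 and 1.29 CPM with TCDD, 1.01 and 1.07 CPM with DMSO). No marker of this list was at 0 in any group, and their summed level is given above. Of 6 pluripotent markers 2 rose (SOX2 and PRDM14), and the list summed to 2320 to 2360 CPM with TCDD and 2210 to 2240 CPM with DMSO. Its log2 fold changes were positive for 3 genes and negative for 3. NANOG (22.9 and 22.9 against 26.2 and 24.8 CPM) and L1TD1 (581 and 619 against 669 and 634 CPM) were lower with TCDD without a call. Of 5 fibroblast markers 3 were tested, and COL1A1 rose, with 197 and 197 CPM with TCDD against 141 and 129 CPM with DMSO. THY1 (72.6 and 71.2 against 82.9 and 80.9 CPM) and COL1A2 (85.2 and 84.4 against 89.6 and 87.1 CPM) were lower with TCDD without a call. The list summed to 353 to 355 CPM with TCDD and 297 to 314 CPM with DMSO, and DCN and LUM were at 0 in both groups. Among the lists for endoderm, neuroectoderm and trophoblast, with 3, 1 and 3 tested genes, the endoderm gene GSC alone was called, and it fell. The part of these cell states in the values of the ERK feedback genes was not tested.

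Between D1 and D2 the ERK feedback genes did not all go one way. D1 and D2 cells differed in medium and in CHIR99021 as well as in stage, so these cannot be told apart in any time comparison. With TCDD, 6 of the 10 fell and 1 rose at D2 relative to D1, where 65.3% of all genes tested were called, 32.2% falling and 33.1% rising. With DMSO, 3 fell and 2 rose, where 63.2% of all genes tested were called, 30.7% falling and 32.5% rising. The 10 genes were thus called about as often as genes in general. ETV5, DUSP6 and SPRY4 fell and PHLDA1 rose in both treatments. The median log2 fold change of the 10 genes was -0.35 with TCDD and -0.03 with DMSO, beside 0 and 0.01 for all genes tested. The time comparisons share libraries with the comparisons of TCDD and DMSO, so the values below are set side by side and are no second test of them.

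DUSP6 was the phosphatase that fell with time in both treatments. Its mean with TCDD was 23 ± 1.28 CPM at D2 and 112 ± 15.2 CPM at D1 (SD, n = 2 each), and its log2 fold change was -2.29 ± 0.28 (edgeR adjusted p = 0.00197). With DMSO it was 35.4 ± 5.35 CPM at D2 and 108 ± 31.2 CPM at D1 (-1.62 ± 0.27, edgeR adjusted p = 0.00599). No D2 library reached any D1 library. DUSP4 fell with TCDD (-0.32 ± 0.12, edgeR adjusted p = 0.0272). With DMSO its log2 fold change was 0.02 and its groups overlapped. The DUSP4 call was lost without replicate 1 of TCDD at D1 or without either TCDD library of D2, with adjusted p-values of 0.0542 to 0.355.

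SPRY4 was the 1 Sprouty gene that fell with time. It averaged 68.1 ± 4.39 CPM at D2 and 183 ± 41.1 CPM at D1 with TCDD (-1.43 ± 0.26, edgeR adjusted p = 0.00815), and 98.1 ± 2.92 CPM at D2 and 186 ± 47.8 CPM at D1 with DMSO (-0.92 ± 0.25, adjusted p = 0.0322). The DMSO call was lost in 5 of 8 fits that left out a library, namely without replicate 1 of DMSO at D1 or any D2 library (adjusted p from 0.059 to 0.137), and the TCDD call without replicate 2 of TCDD at D2 (0.0521). SPRY2 went the other way: it rose with DMSO, to 51.6 ± 0.773 CPM at D2, against 39.1 ± 8.69 CPM at D1 (0.40 ± 0.14, adjusted p = 0.047). That call was lost without any 1 of the 4 D2 libraries (0.0925 to 0.179). With TCDD its log2 fold change was 0.31 ± 0.15 (adjusted p = 0.106), which passed in 8 of 17 alternative fits. SPRY1 had 32 ± 1.2 CPM at D2 and 29.5 ± 2.08 CPM at D1 with TCDD, and 36.1 ± 1.79 CPM at D2 and 35.2 ± 3.31 CPM at D1 with DMSO, and passed in neither.

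The ETS factors differed in size of change. ETV5 fell in both treatments, to 26.2 ± 2.04 CPM at D2 with TCDD, against 85.9 ± 2.9 CPM at D1 (-1.71 ± 0.07, edgeR adjusted p = 1.62e-13), and to 31.4 ± 2.21 CPM at D2 with DMSO, against 82.8 ± 7.2 CPM at D1 (-1.40 ± 0.07, adjusted p = 2.27e-12). The D2 libraries were all below every D1 library. ETV4 fell with TCDD (-0.40 ± 0.10, adjusted p = 0.00594), a call lost without replicate 1 of TCDD at D2 (0.0655). With DMSO it had 90 ± 1.38 CPM at D2 and 102 ± 13.8 CPM at D1 (-0.18 ± 0.10, adjusted p = 0.139), which passed in 9 of 17 alternative fits (adjusted p from 9.54e-06 to 0.742 over the 17).

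PHLDA1 was the 1 gene of the 10 that rose in both treatments. Its mean with TCDD was 312 ± 15.6 CPM at D2 and 126 ± 6.83 CPM at D1, 2.47-fold higher (log2 fold change 1.31 ± 0.05, edgeR adjusted p = 1.5e-14). With DMSO it was 263 ± 8.52 CPM at D2 and 125 ± 6.04 CPM at D1, 2.1-fold higher (1.07 ± 0.05, adjusted p = 3.68e-13). SPRED1 fell with TCDD, to 92.2 ± 1.69 CPM at D2, against 120 ± 6.53 CPM at D1 (-0.38 ± 0.05, adjusted p = 5.65e-07). With DMSO it had 89.7 ± 1.1 CPM at D2 and 95 ± 0.569 CPM at D1 (-0.08 ± 0.05, adjusted p = 0.141). SPRED2 passed in neither treatment, with log2 fold changes of 0.10 with TCDD and 0.04 with DMSO.

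**Figure D3:**
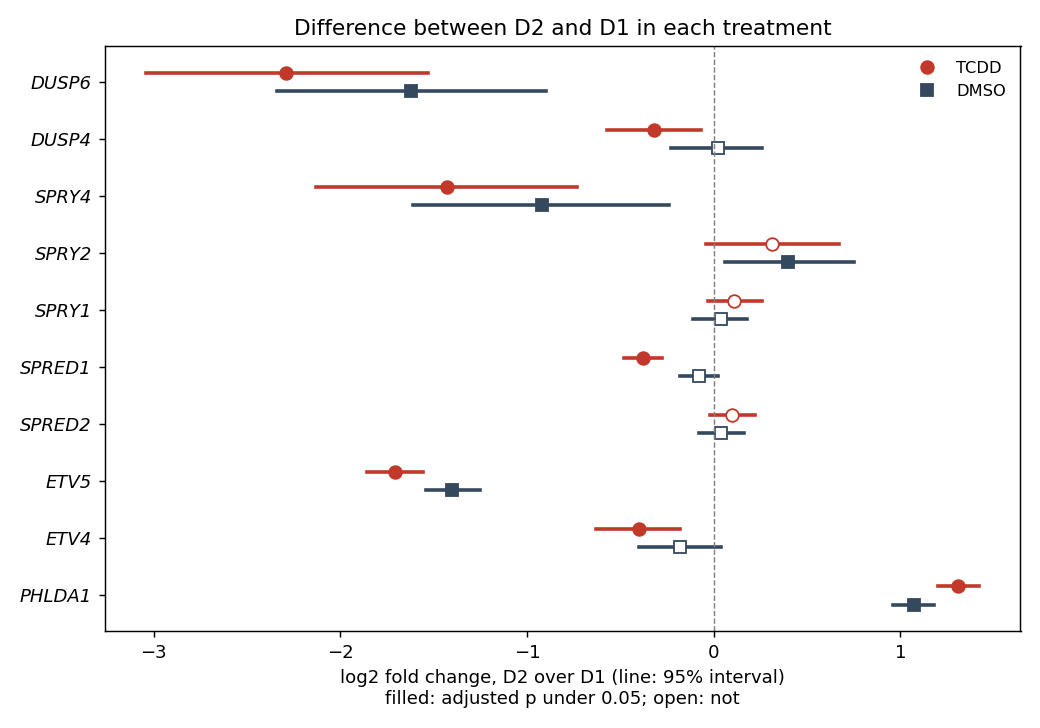
Log2 fold change of D2 over D1 for each ERK feedback gene (horizontal axis) with TCDD (circles) and with DMSO (squares), with 95% intervals from the fit over 8 libraries; filled symbols have an adjusted p under 0.05. DUSP6 (-2.29 with TCDD and -1.62 with DMSO) and ETV5 (-1.71 and -1.40) lie furthest to the left, and PHLDA1 (1.31 and 1.07) furthest to the right.

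A direct test asked whether the TCDD effect at D2 differed from that at D1. SPRED1 was the 1 gene of the 10 for which it did, where 0.822% of all genes tested were called. The D2 effect minus the D1 effect was -0.30 ± 0.07 on the log2 scale (edgeR adjusted p = 0.0373), since TCDD and DMSO means were 92.2 and 89.7 CPM at D2 and 120 and 95 CPM at D1. The call was lost in 7 of 8 fits that left out a library, each except that without replicate 1 of TCDD at D1, with adjusted p-values of 0.071 to 0.221. For PHLDA1 the difference of effects was 0.24 ± 0.07 (adjusted p = 0.192) and for ETV5 it was -0.31 ± 0.10 (adjusted p = 0.198), neither called. DUSP4 and ETV4, whose fall with time was called with TCDD alone, were not called in this direct test either. Their differences were -0.33 ± 0.17 (edgeR adjusted p = 0.511) and -0.22 ± 0.14 (edgeR adjusted p = 0.655). For DUSP6 it was -0.67 with a 95% interval of -1.70 to 0.37, and for SPRY4 it was -0.50 with an interval of -1.48 to 0.47, so these libraries do not place those differences closely.

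**Figure D4:**
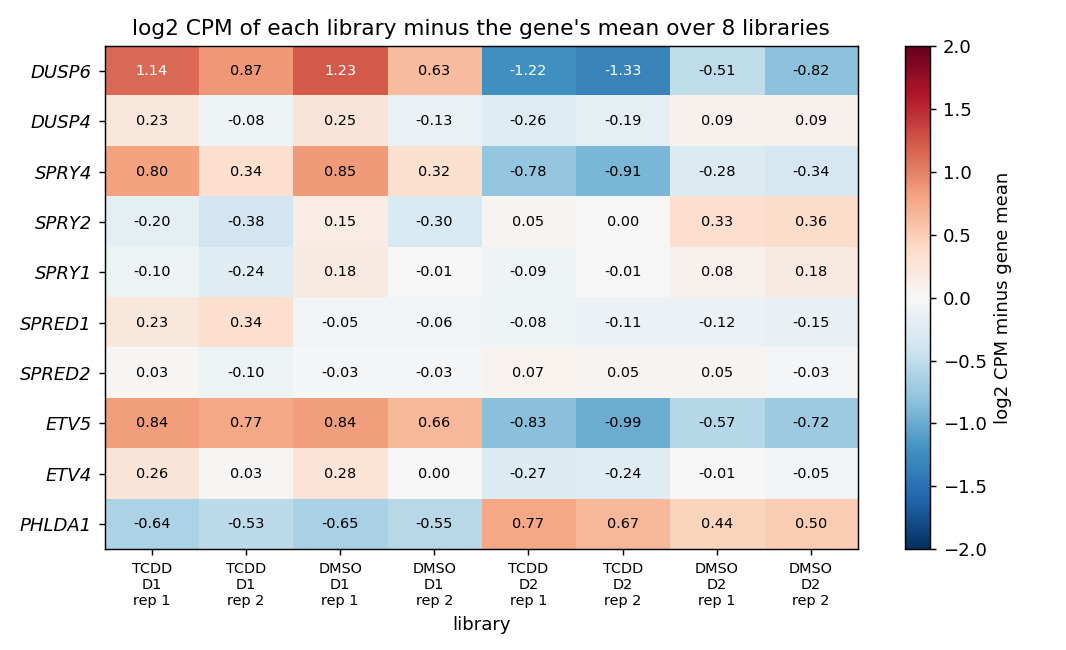
Log2 CPM of each ERK feedback gene (rows) in each library (columns) minus the gene's mean over the 8 libraries; red is above and blue below that mean, and the printed values give the size. DUSP6, SPRY4 and ETV5 are red in the 4 D1 libraries and blue in the 4 D2 libraries, PHLDA1 is the reverse, and the D2 values of DUSP6 are -1.22 and -1.33 with TCDD, beside -0.51 and -0.82 with DMSO.

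Other genes of the pathway were read from 4 lists. Of 23 tested genes among 24 other feedback and attenuation genes, edgeR and DESeq2 called none between TCDD and DMSO at D1, where 5 had an unadjusted p under 0.05, as did 10.3% of all genes tested. At D2 LRIG1 alone rose and none fell, where 1.40% of all genes tested rose and 1.50% fell. LRIG1, a membrane protein known to promote loss of receptor tyrosine kinases, had 235 and 223 CPM with TCDD at D2, against 161 and 157 CPM with DMSO. The groups lay well apart (log2 fold change 0.52 ± 0.05, edgeR adjusted p = 8.19e-07), and no fit without a library lost the call. Its effect at D2 also exceeded that at D1 (0.37 ± 0.07, edgeR adjusted p = 0.0125), a call lost in 4 of 8 such fits (0.0623 to 0.108), namely without replicate 1 of DMSO at D1, replicate 1 of TCDD at D2 or either DMSO library of D2. With time, 7 of the 23 rose and 8 fell with TCDD, and 8 rose and 10 fell with DMSO. Of all genes tested, 65.3% were called with time with TCDD and 63.2% with DMSO. With DMSO, DUSP16 (-1.18) and ERRFI1 (-1.20), a feedback inhibitor of the EGF receptor, fell, and DUSP10 (1.92) rose. The list's median log2 fold change was 0.04 at D1 and 0.05 at D2 for TCDD over DMSO.

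The cascade itself moved little with TCDD. Of 27 tested components edgeR and DESeq2 called none at D1, where 3 had an unadjusted p under 0.05, beside 10.3% of all genes tested, and none at D2, where 2 did, beside 14.0%. The median log2 fold changes were 0 and 0.01. With time, 9 rose and 6 fell with TCDD, and 9 rose and 5 fell with DMSO. The shares called among all genes tested were 65.3% with TCDD and 63.2% with DMSO. Among the genes called with DMSO were the scaffold KSR1 (-0.74), the ERK-activated kinase RPS6KA2 (-0.69) and the adaptor GRB2 (0.49).

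FGF ligands and receptors gave more calls between TCDD and DMSO than the other pathway lists, 1 gene at D1 and 4 at D2. Of all genes tested, 1.14% were called at D1 and 2.90% at D2. Of 16 tested among 17, FGF11 rose with TCDD at D1 (0.28 ± 0.05, edgeR adjusted p = 0.00509), with 71.7 and 72.5 CPM against 57.7 and 61.2 CPM with DMSO. FGF11 belongs to a subgroup that stays inside the cell, and its call was lost when replicate 1 of DMSO at D1 was left out (adjusted p = 0.193). At D2 the secreted ligands FGF4 and FGF8 and the intracellular FGF13 fell with TCDD and the receptor FGFR2 rose. FGF4 had 4.82 and 4.38 CPM with TCDD, against 11.2 and 10.4 CPM with DMSO (-1.23 ± 0.11, edgeR adjusted p = 3.59e-07). FGF8 had 14.1 and 17.3 CPM with TCDD, against 24 and 23.6 CPM with DMSO (-0.60 ± 0.09, edgeR adjusted p = 0.00041). No library of one group reached the other for either ligand. FGF13 gave -0.40 ± 0.05 (adjusted p = 5.18e-05) and FGFR2 0.22 ± 0.05 (adjusted p = 0.0137), and the FGFR2 call was lost without replicate 1 of TCDD at D2 or either DMSO library of D2 (0.0526 to 0.288). In the direct test of D2 against D1 effects, FGF4 (edgeR adjusted p = 0.0316), FGF13 (0.0113) and FGFR2 (0.00728) were called. Of all genes tested 0.822% were. FGF8 was not called there (0.95), and each of the other calls was lost in some fits that left out a library. With time, 7 of the list rose and 7 fell with TCDD, and 6 rose and 8 fell with DMSO. Of all genes tested, 65.3% were called with TCDD and 63.2% with DMSO. FGF8 (5.61), FGF18 (3.74) and FGF4 (3.16) were among those that rose with DMSO. The list's median was -0.01 at both times for TCDD over DMSO.

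Immediate early and growth targets of ERK held 14 tested genes. With TCDD at D1 edgeR and DESeq2 called none, and 2 had an unadjusted p under 0.05, beside 10.3% of all genes tested. At D2 edgeR called 1 of the 14, FOS, an AP-1 subunit, where 2.90% of all genes tested were called. FOS fell, with 4.46 and 3.77 CPM with TCDD against 6.83 and 5.82 CPM with DMSO (-0.61 ± 0.14, edgeR adjusted p = 0.0206). That call was lost without replicate 2 of TCDD or replicate 1 of DMSO at D2 (0.269 to 0.274), and DESeq2 did not make it. The list's median log2 fold change was 0.03 at D1 and -0.13 at D2. With time, 4 rose and 7 fell with TCDD, and 6 rose and 5 fell with DMSO, where 65.3% and 63.2% of all genes were called. With DMSO the AP-1 subunits FOSL2 (1.79) and FOSL1 (0.94) rose and the survival factor MCL1 (-0.40) fell.

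For DUSP6, SPRY4 and PHLDA1 the genes with the most similar pattern over the 8 libraries were sought among 11644 genes that averaged 5 CPM or more. Symbols that begin with LOC, MIR, SNOR, LINC or RN7 were left out of these. The measure was the Euclidean distance between log2 CPM profiles centred on each gene's mean. Nearest to DUSP6, whose profile spanned 2.56 on the log2 scale, were RAPGEF3 (0.54), RASGRP4 (0.56) and SAMD14 (0.63). Nearest to SPRY4, which spanned 1.76, were EDNRB (0.40), HSPA12B (0.41) and JUN (0.43). Nearest to PHLDA1, which spanned 1.42, were EFNA5 (0.12), EXOC6 (0.17) and CITED2 (0.18). No other ERK feedback gene was among the 3 nearest of any of them.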

How the data were processed

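Each library was a table of raw read counts per gene symbol, deposited by the authors without normalisation, judging by its whole numbers. Per the submitters' processing notes, cutadapt 1.9.1 trimmed the reads, STAR aligned them to hg19 and featureCounts 1.5.1 counted them. The annotation, the strand setting and the handling of multi-mapping reads were not given in these sources. DUSP6 and PHLDA1 have antisense partners in GENCODE that the tables do not list, and their reads cannot be told apart.

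Groups came from the sample titles. Replicates differed by more than sampling noise (chi-square per degree of freedom from 3.21 to 6.59 over genes with at least 20 counts), so each library was kept as a sample. In R 4.3.3, edgeR 4.0.16 removed low genes (filterByExpr), scaled libraries by TMM and fitted 1 quasi-likelihood model with a mean per group to all 8 libraries. The tests were two-sided F tests, p-values were adjusted over the 17268 genes tested (Benjamini-Hochberg), and the threshold was 0.05. SEs were derived from the F statistic. The fit was tested on simulated data in which all genes shared the same spread beyond sampling noise. That test does not cover genes of unequal spread. Totals of 34873055 to 43770420 counts set the precision of low genes. DESeq2 1.42.0 was an alternative, beside other scalings, no filter, fewer libraries and replicate blocks.

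The genes and lists were chosen with earlier results of these data known. edgeR's robust option was set to match an earlier analysis of the whole series after the calls without it had been seen, and both are reported. The text names all 10 ERK feedback genes, up to 4 called genes per pathway list with the smallest p for each comparison of TCDD with DMSO and up to 3 for D2 against D1 with DMSO, and the 3 nearest profiles (log2 CPM with a prior count of 2). Marker genes named by their calls, and the signs of single libraries, were described after their values were seen.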

Additional observations from a re-analysis of the deposited data

Results flagged for a closer look

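The TCDD effect on SPRED1 differed between the times in a direct test of the difference. It was -0.30 on the log2 scale for D2 minus D1 (edgeR adjusted p = 0.0373), from effects of 0.04 at D2 and 0.34 at D1. Both TCDD libraries exceeded both DMSO libraries at each time, by 1.03-fold between means at D2 and 1.27-fold at D1. In fits that left out 1 library each, the difference ran from -0.35 to -0.24 and kept the call in 1 of 8.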

How the results depend on the processing

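Of 840 values of the 10 genes under alternatives, 748 stayed called or stayed uncalled, 30 lost a call and 62 gained one. No called value changed sign, but 24 uncalled values, counted within the 748, did. Among them were DUSP6 at D1, which ran from -0.22 to 0.38 as 1 library at a time was left out, and SPRY4 at D1, from -0.27 to 0.27. Without a count filter, edgeR called 480 genes at D1 (2 of the 10 ERK feedback genes), 885 at D2 (5 of the 10) and 433 for the difference of effects (3 of the 10), each over 1.5 times the 197, 500 and 142 with the filter. The fit without a filter tested 23118 genes, against 17268 with it. Without composition scaling between libraries, 2 of the 10 were called at D2, ETV5 being added, where 532 of the 17268 genes tested were called. That setting moved the median log2 fold change of all genes by -0.11 for D2 against D1 with TCDD and moved the split of calls to 4183 higher and 6992 lower with TCDD, against 5710 and 5561 with TMM, and to 4377 higher and 6425 lower with DMSO, against 5613 and 5299 with TMM. For the difference of effects it gave 75 higher and 65 lower, against 91 and 51, and DESeq2 gave 111 and 36. DESeq2 called 214 higher and 147 lower at D2, against 241 and 259. Fits of the 4 libraries compared called 7 of the 10 at D2, where 696 of the 16523 genes tested were called. For D2 against D1 with DMSO they called 3 of the 10, where 11191 of the 16889 genes tested were called. In that time comparison DUSP6 (edgeR adjusted p = 0.051), SPRY4 (0.0864) and SPRY2 (0.182) were lost and SPRED1 (0.0351) was added as lower. RLE scaling (0.0542) and no scaling (0.0626) also lost SPRY2 there, and DESeq2 lost DUSP4 for D2 against D1 with TCDD (0.059). Without robust estimates 3 of the 10 were called at D2, where 509 of the 17268 genes tested were called. The cause of each move was not tested.

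Replicates carry numbers in the titles, but with only 2 numbers their differences correlated at 0.28 between treatments at D1, 0.20 at D2 and -0.26 between D1 and D2 with TCDD, so pairing is not established. With the replicate block, 502 genes were called at D2, 3 of them among the 10, DUSP6 (adjusted p = 0.00466) and ETV5 (0.0135) being added as lower. For the difference of effects the block lost SPRED1 (0.0526) and added DUSP6 (0.0357). With a replicate block within each time, chosen after seeing the data, calls numbered 597 at D1 (3 of the 10), 1143 at D2 (8 of the 10, 7 of them lower) and 578 for the difference (6 of the 10). Of the 1143 calls at D2, 551 were lower. Each fit with a replicate block tested 17268 genes. With numbers crossed between times in the block, also chosen after seeing the data, calls numbered 453 (2 of the 10), 883 (3 of the 10) and 404 (2 of the 10).

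Leaving out 1 library at a time gave 78 to 246 calls at D1 (1 to 3 of the 10), 215 to 653 at D2 (0 to 2), 9799 to 11300 for D2 against D1 with TCDD (5 to 8), 9183 to 11286 with DMSO (3 to 6) and 49 to 269 for the difference (0 to 1). The lowest D1 count came without replicate 1 of DMSO at D1, and D2 counts were 215 and 268 without replicate 1 and 2 of DMSO at D2 and 248 without replicate 2 of TCDD at D2. The difference had 269 calls without replicate 1 of TCDD at D1, 106 to 148 without replicate 1 of TCDD at D2 or replicate 2 of TCDD at D1, and 49 to 82 without any other library. A lone library left in a group was assumed to vary like the others. With 2 libraries a group, small differences in low genes and differences within the replicate spread may have gone undetected at this depth.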
